A study of Homo sapiens with 8 samples.

Results

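The cytosolic ribosomal protein genes encode the proteins that, together with rRNA, build the ribosomes of the cytoplasm. They were chosen by symbol alone: RPL or RPS followed by a number and, where present, an A or an X, plus RPLP0, RPLP1, RPLP2 and RPSA. Of the 58828 gene symbols listed for both cell lines, 77 met this rule, 46 of the large subunit and 31 of the small subunit, and all 77 passed the filter on low counts that kept 19784 genes. FAU, which encodes a further ribosomal protein fused to a ubiquitin-like protein, does not carry such a symbol and was not a member. The cells were 22RV1 and DU145, both established lines of human prostate cancer, which had been transduced with a lentiviral vector carrying a doxycycline-inducible PAGE4 construct or with the empty vector and selected with puromycin. Doxycycline was given to all cells, vector cells included. Cells of each line and construct received either PBS, the solvent control, or 200 mM H2O2 for 12 h, which was used to raise reactive oxygen species. The dose is printed here as the labels and the methods give it, while a lower one is stated in the study for other measurements, and the counts cannot show which was used. This gave 8 conditions with 1 library each.

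Ribosomal proteins are made in nearly equal numbers, one copy of most of them per ribosome, and their mRNAs are among the most abundant of a growing cell. Most of these mRNAs are known to begin with a C and an unbroken run of pyrimidines, the 5′ terminal oligopyrimidine (TOP) tract. Through this tract their translation, and in part their stability, follows the mTOR kinase and the RNA-binding protein LARP1, so that the mRNA level and the rate of protein synthesis of these genes can part from each other. Levels of mRNA, not of protein or translation, were measured here.

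Because most of these mRNAs are known to carry a TOP tract, the first bases of genes described below are shown. The sequences are those of the RefSeq promoter table on GRCh38.p14, which held 62 of the 77 members. Each line gives the 15 bases before an annotated start and the 15 bases from it on, 5′ to 3′ on the strand of the gene, and capitals mark the unbroken run of C and T bases that begins with a C at the start. For a gene with several annotated starts, here and in all counts of tracts, the start with the longest run was used.
RPS27, chr1:153990747-153990776, plus strand: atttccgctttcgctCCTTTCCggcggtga
RPS21, chr20:62387088-62387117, plus strand: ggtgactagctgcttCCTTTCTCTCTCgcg
RPL18, chr19:48619164-48619193, minus strand: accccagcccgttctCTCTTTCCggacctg
RPS18, chr6:33272060-33272089, plus strand: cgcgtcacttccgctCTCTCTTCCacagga
RPS13, chr11:17077653-17077682, minus strand: ttccactctcgctctCCTTTCgttgcctga
RPL7A, chr9:133348203-133348232, plus strand: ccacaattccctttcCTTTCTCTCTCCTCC
RPS6, chr9:19380222-19380251, minus strand: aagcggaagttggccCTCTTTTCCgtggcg
RPS3A, chr4:151099613-151099642, plus strand: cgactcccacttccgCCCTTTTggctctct
RPS29, chr14:49598696-49598725, minus strand: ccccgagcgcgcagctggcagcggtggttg
The first 4 are the genes whose H2O2 response differed most between the lines, RPS13 and RPL7A are genes with a higher and a lower level in H2O2, and RPS3A and RPS29 are the members with the lowest and the highest DU145 level relative to 22RV1. RPS29 has no C at the annotated start and no tract in this window. A C followed by at least 4 pyrimidines stood at an annotated start in 46 of the 62 members (74.2%), in 1404 of all 27305 genes of the table (5.14%) and in 757 of 11606 tested genes that were not members (6.52%). The share was 73.7% in the large subunit and 75% in the small subunit. The tract, counted from the C, had a median length of 7 bases over the 62 members.

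**Figure D1:**
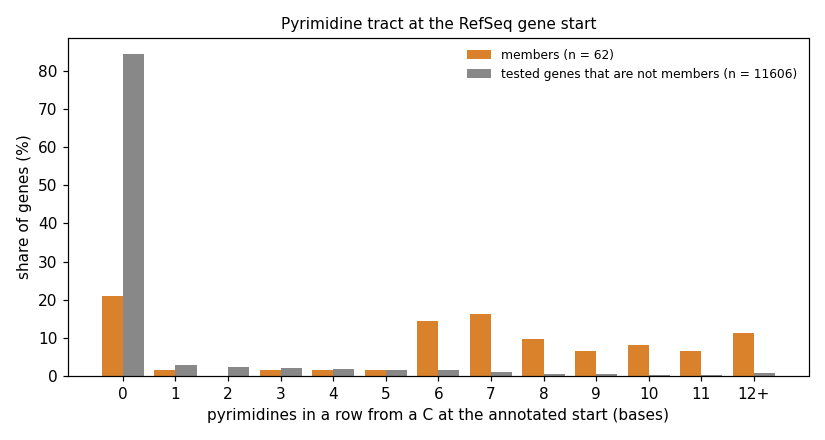
Length of the pyrimidine run from a C at an annotated RefSeq start, in bases on the x axis, against the share of genes in percent, for the 62 members (orange) and the 11606 tested genes that are not members (grey). For a gene with several annotated starts, the start with the longest run was used. A run of 0 was found in 20.97% of members and 84.5% of the other genes, and 11.29% of members had a run of 12 bases or more.

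To see how much of each library came from these genes, their counts were summed. In 22RV1 they took 4.01% of all counts with PBS and 4.32% with H2O2 when the cells carried the empty vector, and 4.72% and 4.67% when they carried PAGE4. In DU145 these shares were 4.97% and 5.75% for the vector and 5.26% and 5.98% for PAGE4. Every DU145 share was above every 22RV1 share, and H2O2 went with a higher share in both DU145 pairs, but with a higher share in vector cells and a slightly lower one in PAGE4 cells of 22RV1. The large subunit took between 2.56% and 3.82% and the small subunit between 1.45% and 2.16%. The Wilson 95% interval of each share was narrow (4.002% to 4.014% in the first library), because it covers counting error only and no condition has a second library. Of the 100 genes with the most counts in a library, 17 to 28 were members.

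**Figure D2:**
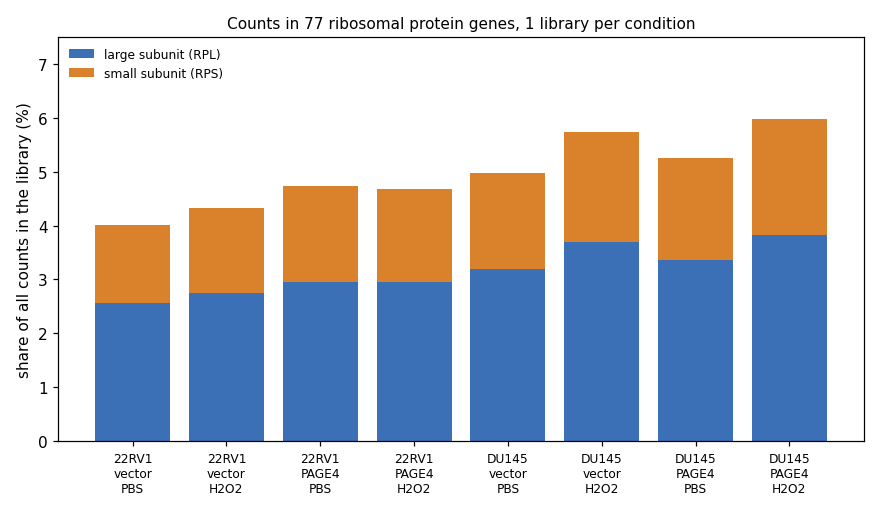
Share of all counts in a library (percent, y axis) that fell on the 46 large subunit genes (blue) and the 31 small subunit genes (orange), in each of the 8 libraries on the x axis. The stacked total was 4.01% to 4.72% in 22RV1 and 4.97% to 5.98% in DU145.

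The libraries held 25482984 to 43310401 counts. PAGE4 had 0 or 1 count in the 4 vector libraries and 1001 to 1489 in the 4 PAGE4 libraries, as labelled. Of the markers of 22RV1, HOXB13 was at 67.9 to 217 CPM (counts scaled by library total and TMM factor) in 22RV1 and under 1 in DU145, while TRPM8 was near 0 in all libraries. Of the markers of DU145, CAV1 was at 65.0 to 118 CPM in DU145 and 1.39 to 2.91 CPM in 22RV1, but CD44 and LGALS1 did not separate the lines. Counts of mitochondrially encoded genes moved with H2O2, from 12.27% to 9.19% and from 10.21% to 8.97% in 22RV1 and from 16.54% to 11.16% and from 14.61% to 10.89% in DU145. They change every share computed over all counts, and their part in the results below was not tested. Nothing in the sources says that libraries came from separately grown replicate cultures. With 1 library per condition, the p-values below rest on how far pairs of libraries disagree in a fitted change. That disagreement mixes noise, which may be technical, with any real difference between pairs, such as one between constructs or treatments. In the 4-pair fits of H2O2 and PAGE4 it also includes any difference between the lines.

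Levels differed widely among members. Per kilobase of transcript (the median length of a gene's basic protein-coding GENCODE transcripts), the mean level over the 4 libraries of 22RV1 ran from 7.66 CPM per kb for RPS10 to 2467 CPM per kb for RPS2, and in DU145 from 20.95 CPM per kb for RPS10 to 3119 CPM per kb for RPLP1. RPS2 and RPS10 are both small subunit proteins, and RPLP1 is an acidic protein of the stalk that recruits elongation factors. RPS10, RPL36A, RPL26 and RPL17 were the lowest 4 in both lines on this scale. These low counts go with overlap of gene models: other genes covered 84.0% of the exon bases of RPS10, 43.8% of RPL36A, 65.3% of RPL26 and 96.9% of RPL17. Counting tools often drop a read that falls on more than one gene, and the setting used is not given in the sources used here. Overlap alone did not go with a low count, since RPL10, with 53.7% of its exon bases overlapped, was at 748 to 882 CPM. The values of RPS10, RPL36A, RPL26 and RPL17 are therefore uncertain. Reads can also match processed pseudogenes: 1002 pseudogene symbols named after members held counts equal to 1.84% to 2.20% of the members' own. This was uneven, with RPL9 at 211% and a further 7 members over 5%.

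Next, the response to H2O2 was examined over all 4 pairs of libraries that differ only in H2O2. No member passed an adjusted p of 0.05 in edgeR's quasi-likelihood test with the pairs as blocks, against 22.5% of all genes tested. At an unadjusted p under 0.05 there were 2 members, both higher, against 37.3% of all genes, and the DESeq2 Wald test called 2. The median log2 change of the members was 0.05, and that of all genes -0.05. The highest were RPS10 (log2 0.52, SE 0.17, edgeR adjusted p = 0.0603), RPS13 (0.31, SE 0.11, edgeR adjusted p = 0.0839), RPL37 and RPL24, and the lowest were RPL7A (-0.16, SE 0.10, edgeR adjusted p = 0.279), RPS2, RPL23A and RPL3. All 4 pairs were above 0 for 4 members, RPS10, RPS13, RPL17 and RPL30, where 20.2% of all genes were, and below 0 for RPL7A and RPS2, where 24.3% were.

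This pooled result joined lines that did not move alike. In DU145, 39 of the 77 members rose with H2O2 and 0 fell (edgeR, adjusted p under 0.05), where 20.7% of all genes rose and 21.5% fell. The median log2 change over the members was 0.20, or 1.14-fold, and that of all genes was -0.01. The rise was in both DU145 pairs for 67 members, against 39.8% of all genes. It was seen in 24 of 46 large subunit genes (median 0.19) and 15 of 31 small subunit genes (median 0.20). Only 2 members, RPL7A and RPS2, had a fitted change below 0 in DU145, and neither passed the test. Without the PAGE4 pair 7 members were called and without the vector pair 12, all higher, with the lone DU145 pair taken to vary like the pairs of 22RV1.

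RPS13, a small subunit protein, lies on chromosome 11 from 17074388 to 17077715 on the minus strand of GRCh38 (GENCODE release 44, which also gives the gene coordinates below). In DU145 it was at 205 CPM with PBS and 289 with H2O2 in vector cells, and at 222 and 324 in PAGE4 cells (log2 change 0.52, SE 0.07, edgeR adjusted p = 9.4e-06). In 22RV1 it was at 212 and 232 CPM in vector cells and at 228 and 239.8 in PAGE4 cells (0.10, SE 0.07, edgeR adjusted p = 0.337). Both DU145 libraries with H2O2 were above the other 6 libraries, which overlapped between the lines. RPL37, a zinc-binding large subunit protein, had 521 CPM in both DU145 libraries with PBS and rose to 671 and 799.9 with H2O2 (0.49, SE 0.08, edgeR adjusted p = 2.58e-05). RPL24, which forms a bridge between the subunits, went from 240.2 to 322 CPM in vector cells and from 256 to 368 in PAGE4 cells (0.47, SE 0.08, edgeR adjusted p = 4.86e-05). RPS10 had the largest change, 9.9 to 16.6 CPM and 10.6 to 16.4 CPM (0.69, SE 0.19, edgeR adjusted p = 0.00531), but at the low and uncertain level given above. These 4 genes were higher with H2O2 in each DU145 pair.

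In 22RV1, 10 members fell and 0 rose, where 19.7% of all genes fell and 12.8% rose (edgeR, adjusted p under 0.05). The median log2 change was -0.10 over the members and -0.06 over all genes. With libraries scaled by total counts the direction turned, with 5 members higher and 0 lower, and the median of all genes moved from -0.06 to 0.11. Relative to all genes the members' median stayed at -0.04, which is the same under any scaling of the libraries by construction. The pairs also differed: relative to all genes the median of the members was 0.05 higher with the vector and 0.11 lower with PAGE4. Without the PAGE4 pair 3 members were called, 1 higher and 2 lower, and without the vector pair 16 fell. Leaving out either DU145 pair also left 3.

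The 10 genes were RPL7A, RPL23A, RPL3, RPL41, RPS14, RPSA, RPS2, RPL29, RPL8 and RPLP0. RPL7A, on chromosome 9 from 133348218 to 133351426, is a large subunit protein whose gene hosts small nucleolar RNAs in its introns. It went from 834 to 717 CPM with the vector and from 942 to 746 with PAGE4 in 22RV1 (log2 change -0.28, SE 0.07, edgeR adjusted p = 0.00285), and from 1243 to 1235 and from 1459 to 1377 CPM in DU145. RPL3, a protein close to the site of peptide bond formation, went from 1256 to 1076 CPM and from 1565 to 1322 in 22RV1 (-0.23, SE 0.06, edgeR adjusted p = 0.00727), and from 1540 to 1520 and from 1566 to 1602 in DU145. For both genes each 22RV1 library with H2O2 was below its PBS partner. RPSA, a small subunit protein also known as a laminin receptor, RPS2 and RPL23A have pseudogenes that held counts equal to 9.90%, 6.92% and 6.56% of their own, and their values are uncertain to that extent. No member was called in both lines.

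**Figure D3:**
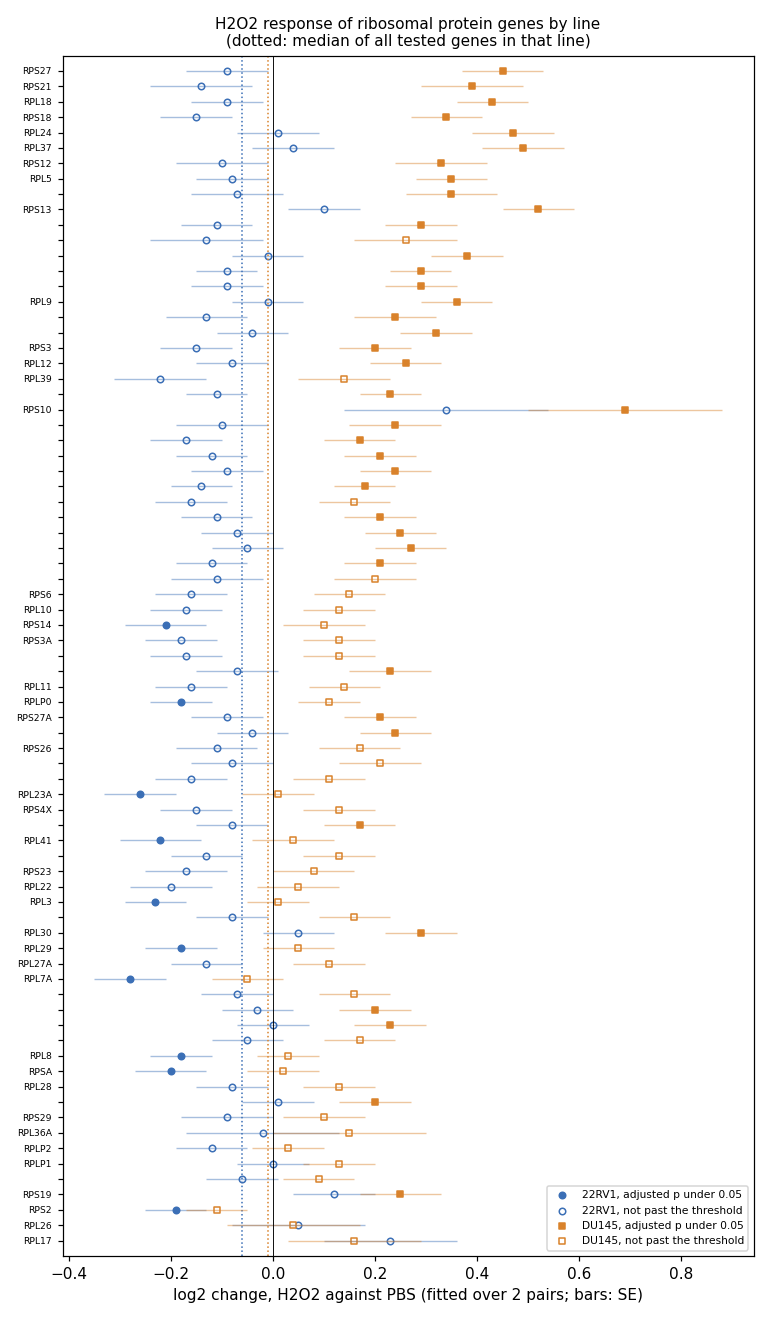
Fitted log2 change with H2O2 (x axis, bars are SE) of each of the 77 members (y axis, ordered by the size of the difference between the lines, with symbols for genes named in the text), in 22RV1 (blue circles) and DU145 (orange squares), with filled marks for an adjusted p under 0.05 and dotted lines at the median of all genes, -0.06 and -0.01. The filled marks lie right of 0 for 39 members in DU145 and left of 0 for 10 members in 22RV1.

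The difference of the H2O2 response between the lines was then tested itself. It was higher in DU145 for 38 members and lower for 0 (edgeR, adjusted p under 0.05), where 12.3% of all genes were higher. The fitted difference was positive for 75 members, with a median of 0.30 on the log2 scale over the members and 0.05 over all genes. Of the 38 genes, 35 had fitted changes of opposite sign in the lines, but with total counts only 5 of them did. The number of members called depended on the scaling and on single pairs: it was 4 with total counts, which lower the median of all genes to -0.09, 12 with scaling factors computed without the members, 18 without the 22RV1 PAGE4 pair, 6 without the DU145 vector pair and 1 without the DU145 PAGE4 pair. Without these 3 pairs in turn, the members' median was above that of all genes by 0.18, 0.26 and 0.22, a distance that the choice of scaling cannot change by construction. The 4 members called with total counts were RPL18, RPL24, RPS18 and RPS27, and the 1 called without the DU145 PAGE4 pair was RPL18.

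RPS27, a zinc-binding small subunit protein, showed the largest difference. It lies on chromosome 1 from 153990762 to 153992155. In DU145 it went from 749.8 to 945 CPM in vector cells and from 725 to 1072 in PAGE4 cells, and in 22RV1 from 399 to 422 and from 429 to 357. The difference was 0.54 (SE 0.12, edgeR adjusted p = 0.00199), and DU145 libraries were above all 22RV1 libraries already with PBS. RPS21, a small subunit protein on chromosome 20 from 62387103 to 62388520, went from 132 to 158 and from 128 to 184 CPM in DU145, and from 109.6 to 116 and from 173 to 135 CPM in 22RV1 (difference 0.53, SE 0.14, edgeR adjusted p = 0.00844). For RPS21 as for RPS27, the 22RV1 pairs moved in opposite directions. RPL18, a large subunit protein on chromosome 19 from 48615328 to 48619184, went from 497 to 719 and from 594 to 749 CPM in DU145 and from 526 to 509 and from 586 to 535 CPM in 22RV1 (difference 0.52, SE 0.10, edgeR adjusted p = 0.000914). RPS18, which sits in the head of the small subunit and lies on chromosome 6 from 33272075 to 33276511, went from 776 to 966 and from 820.5 to 1055 CPM in DU145 and from 475 to 454 and from 589 to 504 CPM in 22RV1 (difference 0.48, SE 0.10, edgeR adjusted p = 0.00128). In RPL18 and RPS18 both DU145 pairs rose and both 22RV1 pairs were lower with H2O2. The smallest differences were those of RPL17 (-0.07), RPL26 (-0.02), RPS2 (0.08) and RPS19 (0.13), none past the threshold.

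By role, the members were described as groups. Of the stalk proteins, RPLP0, RPLP1, RPLP2 and RPL12, only RPL12 rose in DU145 (0.26, SE 0.07, edgeR adjusted p = 0.00295), and RPLP0 had 2537 to 2825 CPM in DU145 and 1998 to 2450.4 CPM in 22RV1. RPL5 and RPL11, which with the 5S rRNA bind and inhibit MDM2 when ribosome assembly is disturbed, both differed in response between the lines. With scaling factors computed without the members, or with DESeq2 size factors, 1 of the 2 was called, and with total counts 0. RPL5 went from 670.2 to 860.2 and from 657 to 830.5 CPM with H2O2 in DU145 (0.35, SE 0.07, edgeR adjusted p = 0.000261), and RPL11 from 622 to 698 and from 608 to 656 CPM (0.14, SE 0.07, edgeR adjusted p = 0.111). Of the 8 proteins listed for the exit tunnel, through which the new peptide leaves, 4 rose in DU145 and 1 fell in 22RV1, and of the 8 listed along the mRNA path 2 rose in DU145 and 2 fell in 22RV1, where 20.7% of all genes rose in DU145 and 19.7% fell in 22RV1. With scaling factors computed without the members, 2 of the tunnel list and 1 of the mRNA path list rose in DU145. The falls in 22RV1 were not called with total counts. Of the 15 genes mutated in Diamond-Blackfan anaemia, an inherited failure to make red cells, 8 rose in DU145 (median 0.20, the same as over all members) and 0 fell in 22RV1. Among single genes fixed by role, RPS27A, which is made as a fusion to ubiquitin, rose in DU145 (0.21, SE 0.07, edgeR adjusted p = 0.0196), while RPS6, the substrate of S6 kinase, had a change of 0.15, RPL10, which contacts the tRNAs, of 0.13, RPL22 of 0.05, the tunnel protein RPL39 of 0.14 and the X-linked RPS4X of 0.13, none past the threshold. RPS6, RPL10, RPS27A and RPS4X were among the 38 members that differed between the lines, and RPL22 and RPL39 were not.

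Members with and without a TOP tract in the RefSeq table were set side by side, with no test. A tract was counted only from a C at the annotated start itself. Some members without one, such as RPL10A and RPL9, have a pyrimidine run a few bases after that start. Members without a counted tract are thus not known to lack a TOP tract. The median log2 change with H2O2 in DU145 was 0.20 in the 46 with a tract and 0.20 in the 16 without, and 22 and 9 of them were called. In 22RV1 both medians were -0.10, and the median difference between the lines in that response was 0.31 and 0.30. For PAGE4 against vector the medians were 0.14 with a tract and 0.08 without, and for DU145 against 22RV1 they were 0.45 and 0.70. RPS13 and RPL7A, whose tracts are shown above, were near opposite ends of the H2O2 response over 4 pairs.

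Other genes of the translation machinery were read from fixed lists. For comparison, 20.7% of all genes rose and 21.5% fell in DU145 with TMM scaling, and 12.8% rose and 19.7% fell in 22RV1. The response was higher in DU145 for 12.3% of all genes. Of 15 tested mRNAs other than members that carry a known TOP tract (elongation and initiation factors, PABPC1, TPT1, NACA and others), 11 rose and 1 fell in DU145, 0 rose and 3 fell in 22RV1 (1 and 1 with total counts), and the response was higher in DU145 for 11 (median difference 0.32), or for 3 with total counts. NACA, a subunit of the nascent polypeptide-associated complex, had a difference of 0.61 (edgeR adjusted p = 0.000199), and HNRNPA1, an RNA-binding protein, fell in both lines by 0.50 and 0.54 on the log2 scale (edgeR adjusted p = 8.2e-06 and 1.96e-06). Genes whose products assemble ribosomes had a larger median change in DU145 than the members. Of 45 ribosome biogenesis genes, 41 rose and 0 fell in DU145 with a median of 0.76, and in 22RV1, where the median was 0.12, 10 rose and 8 fell, or 27 and 0 with total counts. The response was higher in DU145 for 38 of them, and for 29 with total counts. GAR1, a protein of the complex that makes pseudouridine in rRNA, had a change of 1.3 in DU145 (edgeR adjusted p = 7.96e-08) and 0.02 in 22RV1, and the nucleolar proteins NCL, NPM1 and FBL rose by 0.33 to 0.44 in DU145 and fell by 0.23 to 0.35 in 22RV1, where they were not called with total counts. Of 77 mitochondrial ribosomal protein genes, which make a separate ribosome, 31 rose and 7 fell in DU145 and 2 rose and 13 fell in 22RV1, or 15 and 4 with total counts. Their median change was 0.18 in DU145 and -0.07 in 22RV1, near the members' medians of 0.20 and -0.10. The response was higher in DU145 for 18 of them and lower for 1 (median difference 0.23), or for 8 and 2 with total counts.

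Of 16 genes of mTOR signalling and TOP mRNA control, 6 rose and 4 fell in DU145 and 4 rose and 4 fell in 22RV1 (5 and 1 with total counts). Among all genes, 20.7% rose and 21.5% fell in DU145 with TMM scaling, and 12.8% rose and 19.7% fell in 22RV1. This short list was not tested against these shares. MYC, a transcription factor known to raise ribosome synthesis, fell in 22RV1 (log2 change -1.04, edgeR adjusted p = 3.36e-07) and rose in DU145 (0.46, edgeR adjusted p = 0.00148). LARP1 rose in DU145 (0.53, edgeR adjusted p = 3.94e-06) and had a change of 0.00 in 22RV1. SESN2 and DDIT4, stress-induced inhibitors of mTOR complex signalling, rose in both lines, SESN2 by 2.71 in 22RV1 and 2.32 in DU145 and DDIT4 by 1.79 and 1.76 (edgeR adjusted p from 6.42e-12 to 3.86e-08). The difference between the lines did not pass the test for SESN2 (edgeR adjusted p = 0.129, and 0.0399 with total counts) or DDIT4 (edgeR adjusted p = 0.963). The other sestrin genes of the list, SESN1 and SESN3, moved differently. SESN1 rose in 22RV1 (1.69, edgeR adjusted p = 1.53e-07) but not past the threshold in DU145 (0.20, edgeR adjusted p = 0.445). SESN3 fell by 0.34 in 22RV1 and by 1.11 in DU145 (edgeR adjusted p = 0.0424 and 5.65e-06). Their differences between the lines were -1.48 and -0.77 (edgeR adjusted p = 0.000311 and 0.0079).

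Of 7 tested paralogs outside the rule, 2 rose and 1 fell in DU145, and 2 rose and 2 fell in 22RV1, or 3 and 1 with total counts. The shares over all genes with TMM scaling were 20.7% and 21.5% in DU145 and 12.8% and 19.7% in 22RV1. The response was higher in DU145 for 3 and lower for 1 (median difference 0.31), or for 1 and 1 with total counts. It was higher in DU145 for 12.3% of all genes and lower for 1727 of 19784. RPL22L1, a paralog of RPL22, was at 41.6 CPM with PBS and 78.7 with H2O2 in DU145 vector cells and at 38.2 and 83.4 in PAGE4 cells (log2 change 1.02, edgeR adjusted p = 4.24e-08). In 22RV1 it was at 62.1 to 80.1 CPM (-0.18, edgeR adjusted p = 0.139). RPS27L, a p53-inducible paralog of RPS27, went the other way: it rose in 22RV1 from 36.4 to 77.2 CPM and from 43.0 to 81.2 (1.00, edgeR adjusted p = 6.91e-07), and was at 29.1 to 36.9 CPM in DU145 (0.08, edgeR adjusted p = 0.614). The difference between the lines passed the test for both, at 1.21 (edgeR adjusted p = 1.74e-06) and -0.92 (edgeR adjusted p = 0.000318). RPL39L fell by 0.72 in 22RV1 and by 0.71 in DU145 (edgeR adjusted p = 0.000704 and 0.000694). RPL7L1 rose by 0.52 in DU145 (edgeR adjusted p = 5.17e-06) and RPL36AL fell by 0.34 in 22RV1 (edgeR adjusted p = 0.00339), and their differences between the lines were 0.37 and 0.40 (edgeR adjusted p = 0.0116 and 0.0168).

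To address whether PAGE4 overexpression changed these genes, PAGE4 cells were compared with vector cells over 4 pairs of libraries. The construct and anything else particular to the selected cells that carried it cannot be told apart. Pairs of the same line are not known to be independent comparisons of these cells. No member passed the test (edgeR, lowest adjusted p = 0.200, for RPS19), and only 0.136% of all genes, 27 of them, did. At an unadjusted p under 0.05 there were 31 members, all higher in PAGE4 cells, against 7.94% of all genes, the DESeq2 Wald test called 2, and edgeR without a filter on low counts called 12. The median log2 change was 0.12, or 1.08-fold, over the members and 0.00 over all genes. All 4 pairs were above 0 for 39 members, against 8.76% of all genes, and below 0 for 0 members, against 7.88%. The members' median was highest in the 22RV1 pair with PBS, at 0.21, and was 0.11 in 22RV1 with H2O2, 0.04 in DU145 with PBS and 0.09 in DU145 with H2O2.

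RPS19, the gene most often mutated in Diamond-Blackfan anaemia, was at 340.3 and 483 CPM in vector and PAGE4 cells of 22RV1 with PBS, 411 and 472 with H2O2, and in DU145 at 673 and 783 with PBS and 787 and 947 with H2O2 (log2 change 0.30, SE 0.07). Each PAGE4 library was above its vector partner. RPS26, a small subunit protein at the exit of the mRNA, had the lowest fitted change, -0.13 (SE 0.08, edgeR adjusted p = 0.733). RPS12 and RPS23 were at 0.30 and 0.28, and RPL17, RPS10 and RPL30 lay between -0.05 and -0.01. The PAGE4 effect differed between the lines for 2 members, both higher in 22RV1, where 1.16% of all genes had such a difference. One was RPS6, on chromosome 9 from 19375715 to 19380236. It was at 663 and 878 CPM in 22RV1 with PBS, 597 and 784 with H2O2, and in DU145 at 907 and 932 with PBS and 1007 and 1035 with H2O2 (difference -0.36, SE 0.09, edgeR adjusted p = 0.0415). RPS6 was higher in PAGE4 cells in all 4 pairs, by more in 22RV1. With total counts RPS6 was not called. Without the DU145 pair with H2O2 no member was called, without the DU145 pair with PBS 1 member was, and without the 22RV1 pair with H2O2 8 members were.

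The lines themselves differed most. Over 4 pairs of libraries with like construct and treatment, 51 members were higher in DU145 and 1 was lower (edgeR, adjusted p under 0.05), where 30.2% of all genes were higher and 32.8% lower. The median log2 difference was 0.50, or 1.41-fold, over the members and -0.06 over all genes, and the median level of a member was 459 CPM in 22RV1 and 676 CPM in DU145. With total counts 39 were higher and 5 lower, and the median of all genes moved from -0.06 to -0.27. All 4 DU145 libraries were above all 4 22RV1 libraries for 50 members, against 26.1% of all genes, and below them for 1, against 29.1%. The remaining 26 members overlapped between the lines. The comparison is of 1 line with another, so the line and anything else particular to its cultures cannot be told apart.

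RPS29, a zinc-binding small subunit protein on chromosome 14 from 49570984 to 49599164, was at 37.6 to 42.1 CPM in 22RV1 and 182 to 211 CPM in DU145 (log2 difference 2.23, SE 0.11, edgeR adjusted p = 2.31e-06). Its groups were far apart, and no other member differed as much. RPL37, on chromosome 5 from 40825262 to 40835222, was at 176 to 205 CPM in 22RV1 and 521 to 799.9 CPM in DU145 (1.68, SE 0.13, edgeR adjusted p = 2.08e-05). RPS3, a small subunit protein at the mRNA entry that also acts in DNA repair, was at 379 to 554 CPM in 22RV1 and 1112 to 1363 CPM in DU145 (1.48, SE 0.13, edgeR adjusted p = 4.03e-05). RPS3A, on chromosome 4 from 151099624 to 151104642, was the exception, at 547 to 794 CPM in 22RV1 and 269 to 315 CPM in DU145 (-1.21, SE 0.12, edgeR adjusted p = 8.04e-05). It was the one member with every DU145 library below every 22RV1 library. RPL27A (-0.13), RPL28 (-0.09) and RPSA (-0.01) did not pass the test. Of the Diamond-Blackfan genes 13 of 15 were higher in DU145 (median 0.91), of the exit tunnel proteins 7 of 8 (median 0.86) and of the stalk proteins 2 of 4 (median 0.41). For comparison, 51 of all 77 members (median 0.50) and 30.2% of all genes were higher. These lists include RPS10, RPL17 and RPL26, whose values are uncertain as given above.

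**Figure D4:**
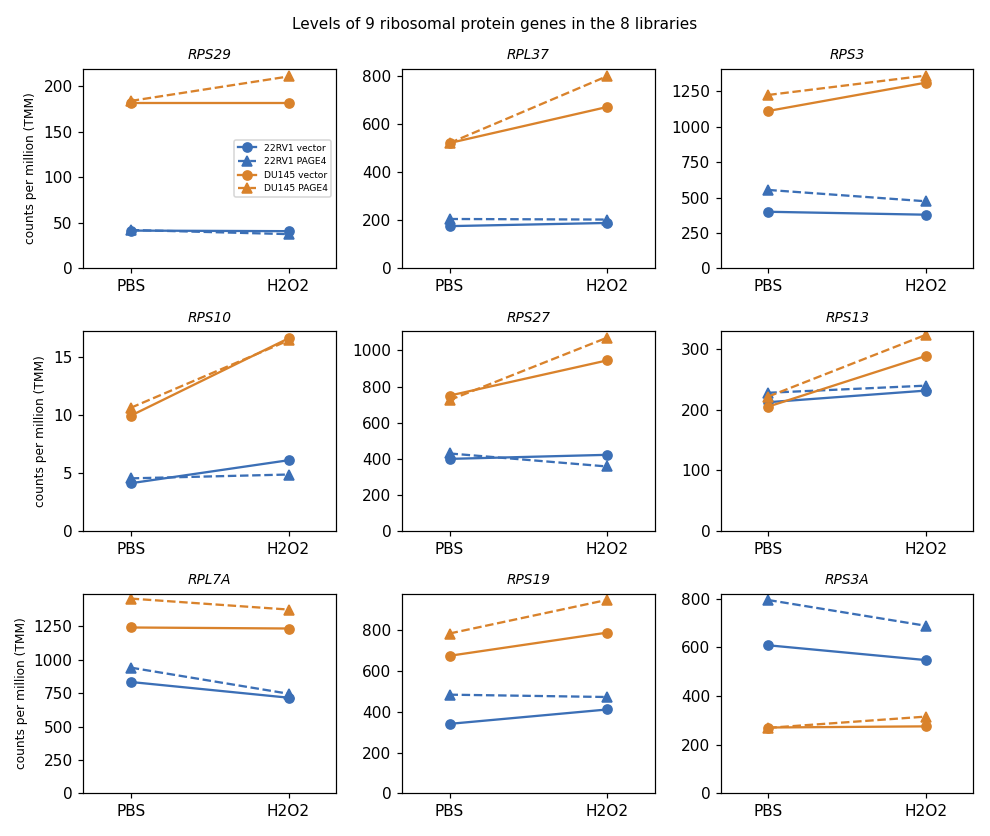
Normalised CPM (y axes, from 0) of 9 members in the 8 libraries, with PBS and H2O2 on the x axes, 22RV1 in blue, DU145 in orange, vector as circles with solid lines and PAGE4 as triangles with dashed lines, 1 library a point. RPS29 stands at 37.6 to 42.1 in 22RV1 and 182 to 211 in DU145, and RPS3A is the panel with 22RV1 above DU145 throughout.

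Last, each pair of libraries was read on its own by a 1.5-fold limit, as a description with no test, since a pair has 1 library a side. With H2O2, 0 members passed in either 22RV1 pair, where 38.4% of all genes (vector) and 30.8% (PAGE4) did. In DU145 RPS10 passed in vector cells, where 40.6% of all genes did, and RPS10 and RPL37 in PAGE4 cells, where 41.5% did, all higher. With PAGE4, 2 members passed in 22RV1 with PBS, both higher and RPS21 among them, where 20.1% of all genes did, and 0 members passed in 22RV1 with H2O2 (23.4% of all genes), DU145 with PBS (15.5%) or DU145 with H2O2 (15.5%). Members were thus rarely past this limit in comparisons within a line. Between the lines 31 members were higher and 1 lower in vector cells with PBS (57.4% of all genes past the limit), 41 and 1 with H2O2 (57.6%), 27 and 2 in PAGE4 cells with PBS (57.8%), and 41 and 1 with H2O2 (60.5%). The members' median difference between the lines was 0.45 and 0.23 with PBS and 0.69 and 0.64 with H2O2, in vector and PAGE4 cells.

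**Figure D5:**
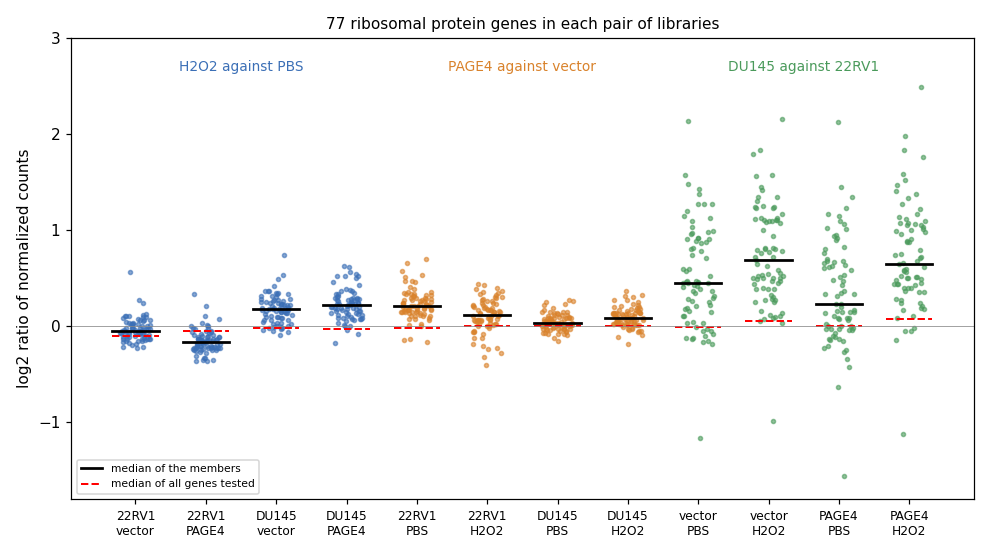
Log2 ratio of normalised counts (y axis) of each of the 77 members, 1 point a gene, in the 12 pairs of libraries on the x axis, with a black line at the members' median and a red dashed line at the median of all genes tested. The members' median lies at 0.17 and 0.22 in the DU145 pairs with H2O2, at -0.05 and -0.16 in the 22RV1 pairs with H2O2, and at 0.23 to 0.69 between the lines.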

How the data were processed

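Per the labels, the submitters aligned reads with HISAT2 2.1.0 on GRCh38 and used featureCounts 1.6.0. The authors deposited raw gene counts, not normalized, in 1 table per cell line. The gene annotation, strand setting and handling of shared reads are not given in the sources used here. RNA was extracted with Trizol per the labels and with a column kit per the study's methods. Both tables were joined by symbol, and samples were grouped by their labels. Counts were analysed with edgeR 4.0.16 in R 4.3.3 (glmQLFit and glmQLFTest), with TMM scaling over the 8 libraries, filterByExpr by line, the pairs of libraries as blocks, and Benjamini-Hochberg adjustment over all 19784 genes with a limit of 0.05. The H2O2 response within a line, and its difference between lines, came from a fit with a treatment term per line. Log2 ratios of single pairs used a pseudocount of 0.5 counts and a mean count of at least 10. Overlap, coordinates and lengths came from GENCODE release 44. Alternatives were other scalings, DESeq2 1.42.0, no filter, added pseudogene counts, additive terms of line, construct and treatment, a stricter fold or count limit, and each pair left out. With 1 library per condition, total counts of 25482984 to 43310401 limit counting error only. Genes named are those fixed by role, and the 4 highest and 4 lowest members of the 4-pair fits and of the difference in H2O2 response. Some of these are not reported here. Other genes named here were chosen after their values were seen. The members and lists were chosen with earlier results of these data known.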

Additional observations from a re-analysis of the deposited data

Results flagged for a closer look

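The H2O2 response differed between DU145 and 22RV1 for 38 members in edgeR's test of the difference itself, all of them higher in DU145, as were 12.3% of all genes. The number was 4 with libraries scaled by total counts and 1 without the DU145 PAGE4 pair. The largest were RPS27, with a difference of 0.54 on the log2 scale, RPS21 with 0.53, RPL18 with 0.52 and RPS18 with 0.48. In RPS27 and RPS21 the 22RV1 pairs moved in opposite directions.

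The PAGE4 effect differed between the lines for 2 members, both with a higher effect in 22RV1, as had 1.16% of all genes. RPS6 was among the 2, with a difference of -0.36 (DU145 minus 22RV1, log2 scale). It was not called with total counts, and the calls depended on single pairs, as given above. No group holds enough libraries to look for single libraries far from the rest.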

How the results depend on the processing

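The labels give no replicate numbers to pair by, so libraries that differ in 1 factor were paired by condition. These pairs were blocks in every fit except the one with additive terms. With 1 library per condition, results rest on few pairs. Numbers below are members past the threshold. For H2O2 over 4 pairs, 0 became 6 with total counts, 1 without a filter, 1 with additive terms and 2 with the DESeq2 Wald test, and 0 to 1 with a pair left out. For H2O2 in 22RV1, 10 became 3 with DESeq2 size factors, with TMM without members and with the Wald test, 16 without a filter, and 3 to 16 with a pair left out, and with total counts 5 were higher. In DU145, 39 became 37 with DESeq2 size factors, 46 with total counts, 26 with TMM without members, 44 without a filter, 29 with the Wald test and 7 to 47 with a pair left out. For the difference between lines, 38 became 25 with DESeq2 size factors, 4 with total counts, 12 with TMM without members, 19 with the Wald test and 1 to 52 with a pair left out. For PAGE4, 0 became 12 without a filter and 2 with the Wald test, and the PAGE4 difference went from 2 to 1 with total counts, 9 without a filter and 0 to 8 with a pair left out. For the line difference, 52 became 42 to 58 with a pair left out. In single pairs, the 22RV1 vector pair with H2O2 had 1 gene past 1.5-fold with DESeq2 size factors and with total counts. With a limit of 2-fold, 0 members remained past it in both DU145 pairs with H2O2 and in the 22RV1 PBS pair with PAGE4, and 14, 27, 11 and 24 between the lines, in vector PBS, vector H2O2, PAGE4 PBS and PAGE4 H2O2. The PAGE4 PBS pair between the lines had 19 with total counts. Each scaling, total counts among them, shifts all genes of a library alike. The cause of the changes in these numbers was not tested. For members that the naming rule selects and that were past the threshold, 504 recomputed values stayed past it, 148 kept their direction and lost the call, and none changed sign.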
